A study of Caenorhabditis elegans with 6 samples.

Results

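The genes *fard-1*, *acl-7*, and *ads-1* encode the enzymes that begin ether lipid synthesis, and they are 3 of the 14191 genes tested in RNA-seq of *C. elegans* treated with vitamin K2 (VK2). They were chosen by name, as the rows of the deposited tables that carry these symbols, with earlier results of these data known. The study had already reported *fard-1* as up-regulated by VK2 in RNA-seq of these samples and in real-time PCR. The place of *fard-1* among the genes tested is therefore not that of an unselected gene. All 3 were listed in both tables, with 7 transcripts between them, and all 3 passed the filter on low values. The VK2-treated worms (libraries T1, T2, and T3) were wild-type N2 worms that spent 7 days, starting as young adults, at 20°C on NGM plates to which 0.1 μM VK2 had been added. The control worms (C1, C2, and C3) were N2 worms of the same age, kept in the same way without VK2. Whole adult worms were used, moved to new plates every day so that progeny were removed, and no transgene or mutation was present in either group. Nothing in the sources used here says whether the 3 libraries of a group came from separate cultures, so the p-values measure only the spread between these libraries.

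In an ether lipid, the first carbon of glycerol holds a fatty alcohol through an ether bond in place of a fatty acid through an ester bond. Plasmalogens are ether lipids with a double bond beside that ether bond, and they are abundant among the ethanolamine phospholipids of the worm. Synthesis begins at the peroxisome. FARD-1, a fatty acyl-CoA reductase, makes the fatty alcohol. ACL-7 adds an acyl chain to dihydroxyacetone phosphate, and ADS-1, the alkylglycerone phosphate synthase, exchanges that acyl chain for the fatty alcohol. Worms that lack any of these enzymes are known to lack plasmalogens and to be sensitive to oxidative stress.

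*fard-1* (WBGene00022200) lies on the plus strand of chromosome X of WBcel235, and its transcripts start at 2933361. *acl-7* (WBGene00012911) lies on the minus strand of chromosome II, from 12811888 to 12816462, with 10 exons and a coding length of 2013 bases in Ensembl release 115. *ads-1* (WBGene00000081) lies on the minus strand of chromosome III, from 295651 to 298556 in the deposited tables, with 6 exons and a coding length of 1791 bases in the same release. For *fard-1* the release gives 4 transcripts with a single coding length of 1608 bases. The primers with which the study measured *fard-1* by real-time PCR are shown because *fard-1* is the member that the study followed beyond RNA-seq. They are written 5′ to 3′ with no base singled out, and their exon was not looked up here.
fard-1 forward: ccgagacaatgtgagggagt
fard-1 reverse: gatgctcgtcgaacttgaca

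The values are FPKM, which corrects fragment numbers for transcript length and library size, summed here over the transcripts of each gene. T1 and C1 were deposited in a first table and the other 4 libraries in a second. The FPKM of all transcripts summed to between 654910 and 686279 in the first table and to between 369349 and 396004 in the second, so levels were compared only within a table. The table cannot be told apart from any sequencing batch. The number of reads behind a value is unknown. In the second table C3 stood apart, and over all genes tested the log2 difference had an SD of 0.695 between C2 and C3 but of 0.292 between T2 and T3. The markers of intestine, hypodermis, muscle, neurons, oocytes, germline, and sperm that were tested were above 0 in every library, as a sample of whole worms would have. In these whole worms, fewer cells of a type and less RNA per cell cannot be told apart.

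All 3 genes were expressed in every library, in the same order. *ads-1* had the highest FPKM, *fard-1* came next, and *acl-7* had the lowest. FPKM is scaled by length, so these levels can be compared between genes. The FPKM of *ads-1* was 3.88 to 5.45 times that of *acl-7* and 1.35 to 2.596 times that of *fard-1* over the 6 libraries. *fard-1* was 1.92 to 3.05 times *acl-7*. Among the genes tested, *ads-1* lay between percentile 86.7 and percentile 90.9 of the FPKM of a library and *acl-7* between 49 and 54. The range was wider for *fard-1*, at 63.6 in C1 and 75.7 in T1 in the first table, and from 78.4 in C2 to 81.8 in T3 in the second.

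*fard-1* was higher in VK2-treated worms in each table, although limma, below, did not call it. In the second table its means differed by more than the SD of either group. The first table has no spread within a group to compare with. T1 had 48.6 FPKM against 31.5 in C1. In the second table it was at 29.8 in T2 and 31.7 in T3 against 29.6 in C2 and 27.5 in C3. The VK2-treated and control libraries did not overlap within either table, although T2 and C2 were nearly equal. No overlap in this direction was found for 6.83% of the genes tested, and among the 3 genes for *fard-1* alone. The mean in the second table was 30.7 ± 1.38 FPKM in VK2-treated worms and 28.6 ± 1.45 FPKM in control worms (SD, n = 2 each).

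*acl-7* was also higher in VK2-treated worms in each numbered pair, and in the second table its means differed by less than the SD of either group. T1 had 20.5 FPKM against 16.4 in C1. In the second table it was at 11.99 in T2 and 10.4 in T3 against 11.4 in C2 and 9.66 in C3. These values overlapped, since T3 was below C2. The mean in the second table was 11.2 ± 1.11 FPKM in VK2-treated worms and 10.5 ± 1.25 FPKM in control worms (SD, n = 2 each).

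*ads-1* differed in sign between the libraries. T1 had 97.4 FPKM against 81.7 in C1. In the second table it was at 46.5 in T2 and 42.7 in T3 against 44.9 in C2 and 52.6 in C3. C3 was the highest library of that table and T3 the lowest, with T2 and C2 between them. The mean was 44.6 ± 2.66 FPKM in VK2-treated worms and 48.8 ± 5.48 FPKM in control worms (SD, n = 2 each).

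**Figure D1:**
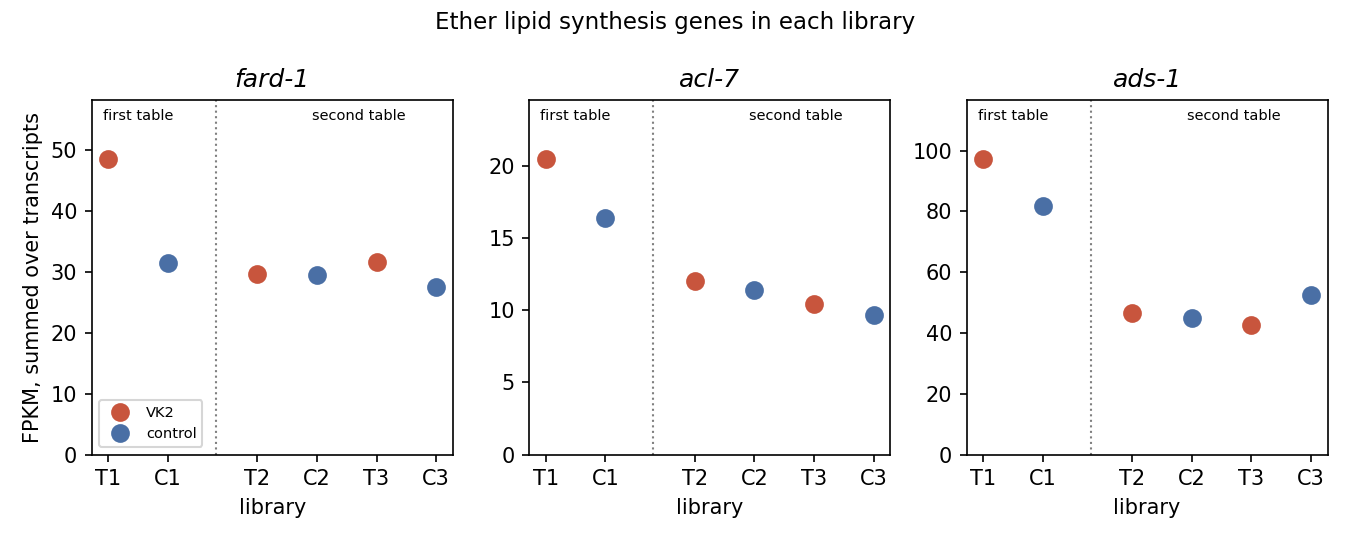
FPKM summed over the transcripts of *fard-1*, *acl-7*, and *ads-1* (vertical axes, each from 0) in each library (horizontal axes), with VK2-treated libraries in red, control libraries in blue, and a dotted line between the tables. T1 lies above C1 for all 3 genes, at 48.6 against 31.5 FPKM for *fard-1*, whereas in the second table only *fard-1* has both VK2-treated libraries above both control libraries.

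The study compared VK2-treated with control worms to find genes whose expression changes with VK2. This was tested by limma on log2(FPKM + 1) in a model of VK2 and table, with two-sided p-values and Benjamini-Hochberg adjustment over all genes tested. The added 1 makes the difference of weakly expressed genes smaller than their change in FPKM. The fitted log2 difference of *fard-1* was 0.27 (standard error 0.16, 95% interval -0.12 to 0.66). For *acl-7* it was 0.15 (standard error 0.17, 95% interval -0.24 to 0.55). For *ads-1* it was 0.0013 (standard error 0.15, 95% interval -0.36 to 0.37). The upper ends of these intervals correspond to 1.58 times for *fard-1*, 1.46 times for *acl-7*, and 1.29 times for *ads-1*. The intervals also include 0, so neither a change of about that size nor no change is set aside.

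The unadjusted p-values of limma were 0.142 for *fard-1*, 0.383 for *acl-7*, and 0.994 for *ads-1*, and all 3 adjusted p-values from limma were 1.00. Over all genes tested, limma called 0 of 14191 at an adjusted p below 0.05 (0.0%), with 507 (3.57%) at an unadjusted p below 0.05. None of the 3 genes was among the 507. A fitted value of 1.5 times or more in favour of VK2-treated worms was found for 3.33% of the genes tested and for none of the 3 genes. The fitted difference of *fard-1* was above that of 86.7% of the genes tested, that of *acl-7* above 76.4%, and that of *ads-1* above 45.2%. All 3 values were above 0, as were those of 55.1% of the genes tested, and the median over all genes tested was 0.02. *fard-1* and *acl-7* were higher in VK2-treated worms in all 3 numbered pairs, as were 10.8% of the genes tested.

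VK2-treated worms were highest relative to control worms in the first table for each gene. T1 was above C1 by 0.61 for *fard-1* on the log2(FPKM + 1) scale, by 0.30 for *acl-7*, and by 0.25 for *ads-1*. As a ratio of FPKM this was 1.55 times for *fard-1*, 1.25 times for *acl-7*, and 1.19 times for *ads-1*. An FPKM ratio of at least 1.5 between T1 and C1 was found for 13.2% of the genes tested, and among the 3 genes for *fard-1* alone. In the second table, T2 against C2 gave log2 differences of 0.01, 0.06, and 0.05 for *fard-1*, *acl-7*, and *ads-1*, while T3 against C3 gave 0.20, 0.10, and -0.30. The FPKM ratio stayed below 1.5 for all 3 genes in both pairs of the second table, whereas 6.98% of the genes tested reached it for T2 over C2 and 19.8% for T3 over C3. All 3 genes were higher in T1 than in C1 and in T2 than in C2, as were 51.2% and 37.9% of the genes tested. In T3 against C3 this held for *fard-1* and *acl-7* and for 59.3% of the genes tested. The median log2 difference of all genes tested was 0.01 in pair 1, -0.07 in pair 2, and 0.11 in pair 3.

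With the second table alone, the log2 difference was 0.10 for *fard-1*, 0.08 for *acl-7*, and -0.12 for *ads-1* in limma, with adjusted p-values of 1.00. Leaving out T1 or C1 gave the same values, because the comparison then rests on the second table. Whether the VK2 difference in the first table exceeded that in the second was tested as an interaction in limma. The first minus the second was 0.51 for *fard-1* (95% interval -0.32 to 1.34), 0.22 for *acl-7* (-0.74 to 1.19), and 0.37 for *ads-1* (-0.47 to 1.22). Their adjusted p-values from limma were all 1.00, and limma called 0 of the genes tested for this interaction (0.0%), with 257 at an unadjusted p below 0.05 (1.81%). The first table has 1 library per group, so the spread in this test comes from the second.

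**Figure D2:**
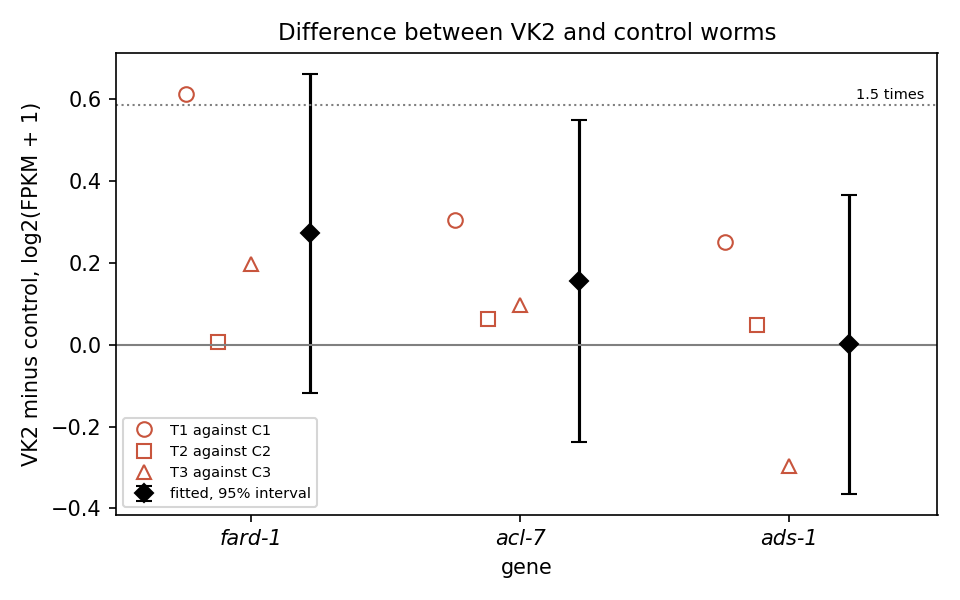
Difference between VK2-treated and control worms in log2(FPKM + 1) (vertical axis) for the 3 genes (horizontal axis), with an open symbol for each numbered pair and a black diamond with its 95% interval for the fitted difference from limma; the dotted line marks 1.5 times. The intervals of all 3 genes include 0, the pair T1 and C1 is highest for each gene, and the pair T3 and C3 of *ads-1* is below 0 at -0.30.

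C3 weighed differently on each gene. The fitted difference of *ads-1* was 0.10 without C3 and -0.03 without C2, and that of *acl-7* was 0.11 without C3 and 0.24 without C2. For *fard-1* it was 0.29 without C3 and 0.35 without C2. C3 also had less RNA of oocyte and embryo genes. The FPKM of the 13 markers of this kind summed to 3766, 1399, and 1422 in T1, T2, and T3, against 3898, 1773, and 603 in C1, C2, and C3. C3 was also high in hypodermis markers, and the 8 listed summed to 1229, 673.5, and 794 FPKM in T1, T2, and T3, against 1037, 800.4, and 1259 in C1, C2, and C3. Sperm markers were higher in the VK2-treated libraries. The 9 tested of 10 listed summed to 381, 320, and 311 FPKM in T1, T2, and T3, against 203, 299, and 176 in C1, C2, and C3, and 8 of the 9 were higher in all 3 pairs, beside 10.8% of the genes tested. An unadjusted p below 0.05 in limma was reached by 5 of the 9, all higher, beside 3.57% of the genes tested. Of these lists, 0 markers were at 0 in any library, and their part in the values of *fard-1*, *acl-7*, and *ads-1* was not tested.

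The transcripts of *fard-1* in the tables share their start, and all but Y71H10A.2.2 and Y71H10A.2.3 differ in where they end. The stop codon lies at 2937033 to 2937035 in Ensembl release 115. Y71H10A.2.1 ends at 2937336, which is 301 bases of genome past the stop codon. Y71H10A.2.2 and Y71H10A.2.3 end at 2937703, and Y71H10A.2.4 ends at 2937730, so these end 668 and 695 bases past it. The ends are those of the deposited tables, and the release gives other ends for these transcript names except Y71H10A.2.3. In the release, Y71H10A.2.1 has 10 exons and 707 bases of exon past the stop codon. Its other *fard-1* transcripts have 11 exons and 349 to 374 such bases, so they also differ in splicing. The deposited values do not show exons, so the grouping by end used here may also separate splice forms.

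Y71H10A.2.1 held most of the FPKM of *fard-1* in every library. It was at 42.0 FPKM in T1 against 29.7 in C1, and at 27.7 in T2 and 27.9 in T3 against 28.2 in C2 and 25.3 in C3. Within the second table the groups overlapped, since C2 was the highest. When this transcript stood for the gene, the log2 difference of *fard-1* was 0.20 (standard error 0.16, adjusted p from limma 1.00).

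The transcripts with the farther ends were low, and their sum was higher in VK2-treated worms in each numbered pair, although not each of them was. Together they were at 6.64 FPKM in T1 against 1.81 in C1, and at 2.099 in T2 and 3.8 in T3 against 1.42 in C2 and 2.28 in C3. T2 was below C3, so the groups overlapped in the second table. The ratios of the pairs were 3.66, 1.47, and 1.67, against 1.42, 0.982, and 1.10 for Y71H10A.2.1. The farther ends made up 13.7%, 7.05%, and 11.99% of the FPKM of *fard-1* in T1, T2, and T3, and 5.77%, 4.82%, and 8.28% in C1, C2, and C3. This pattern was noticed after the values were seen and was not tested. These transcripts overlap over most of their length, so their separate FPKM are estimates, and Y71H10A.2.3 is listed in the first table only. The first ratio rests on Y71H10A.2.2, at 3.45 FPKM in T1 against 0.00153 in C1, and on Y71H10A.2.3, at 1.75 in T1 and listed at 0 in C1. Y71H10A.2.4 went the other way in that pair, at 1.44 FPKM in T1 against 1.81 in C1. In the second table Y71H10A.2.4 was at 2.099 and 2.34 FPKM in T2 and T3 against 1.42 and 1.197 in C2 and C3, and Y71H10A.2.2 was listed at 0 in T2 and C2.

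**Figure D3:**
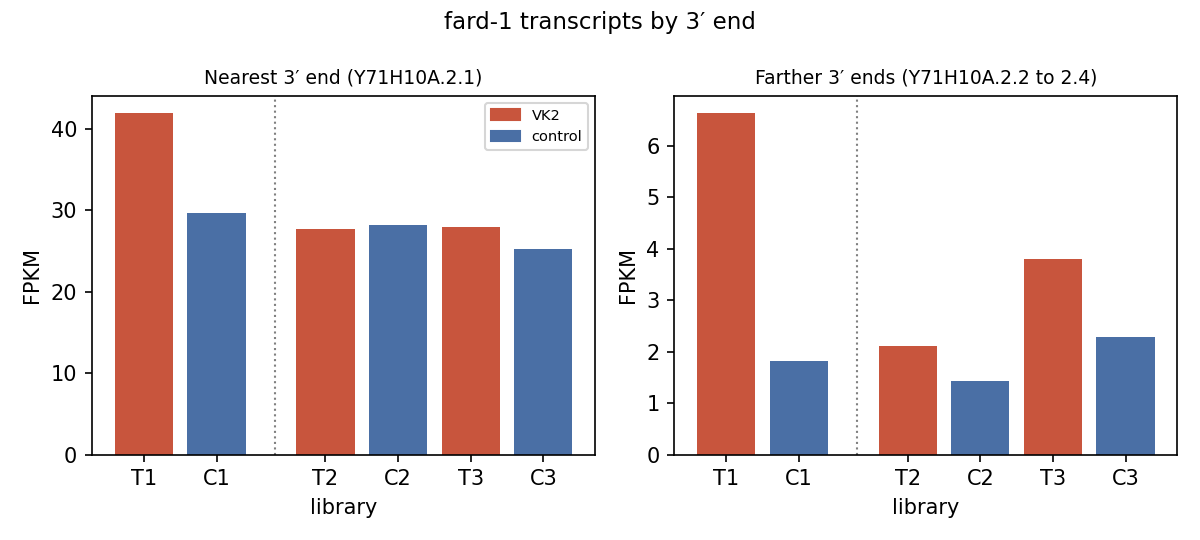
FPKM of *fard-1* transcripts (vertical axes, from 0, on different scales) in each library (horizontal axes), for the transcript with the nearest 3′ end on the left and the sum of those with farther ends on the right; red bars are VK2-treated libraries, blue bars are control libraries, and the dotted line separates the tables. The farther ends reach 6.64 FPKM in T1 against 1.81 in C1 and are higher in T2 and T3 than in C2 and C3 of the same number, although T2 is below C3.

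*acl-7* and *ads-1* offered less of this kind. *ads-1* had a single transcript. For *acl-7*, the transcript listed in both tables held 84.4% to 98.7% of the FPKM in the second table. The second table also lists a longer one, which extends to 12811802, at 1.87 and 0.355 FPKM in T2 and T3 against 1.2 and 0.124 in C2 and C3. Without it, *acl-7* was at 10.1 FPKM in both T2 and T3, against 10.2 in C2 and 9.54 in C3, so T2 and C2 changed places when the longer transcript was left out.

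Genes that act after the first steps showed no common direction. This list of 5 held the phosphotransferases *cept-1*, *cept-2*, and *ept-1*, whose mammalian counterparts add the head group, *tmem-189*, whose mammalian counterpart forms the double bond of plasmalogens, and *agmo-1*, a monooxygenase that cleaves the ether bond. The fitted difference was above 0 for 4 and below 0 for 1, and 0 passed an adjusted or an unadjusted p below 0.05 in limma. The median was 0.11, beside 0.02 over all genes tested. *agmo-1* was at 4.27, 6.77, and 8.49 FPKM in T1, T2, and T3, against 5.12, 8.68, and 12.1 in C1, C2, and C3. The groups did not overlap within either table, which in this direction was found for 5.98% of the genes tested, while 9.32% were lower in all 3 pairs. Its log2 difference was -0.33 (standard error 0.20, adjusted p from limma 1.00). *agmo-1* was highest in C3, where the hypodermis markers were also highest within the second table, and their part in this difference was not tested. *tmem-189* was at 16.7, 12.4, and 13.1 FPKM in T1, T2, and T3, against 13.7, 12.7, and 12.3 in C1, C2, and C3, with a log2 difference of 0.11. *ept-1* had a log2 difference of 0.20 (standard error 0.15).

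The peroxins act in the import of enzymes into the peroxisome and in its assembly. Of 11 peroxin genes tested, 9 had a fitted difference above 0 and 2 below, with a median of 0.12, and 0 passed an unadjusted p below 0.05 in limma. In 5 of the 11, VK2-treated worms were higher in all 3 pairs, beside 10.8% of the genes tested. *prx-5* and *prx-12* are among the 5. The study had already chosen them, with *prx-11*, for real-time PCR after RNA-seq of these samples, so this count is not that of an unselected list. *prx-5*, the receptor for peroxisomal enzymes that carry a targeting signal at their carboxyl end, was at 13.1, 9.26, and 9.37 FPKM in T1, T2, and T3, against 6.43, 8.996, and 8.55 in C1, C2, and C3. Like *fard-1*, it did not overlap between the groups within either table, with the widest gap in the first, and its log2 difference was 0.36 (standard error 0.22). *prx-12* was at 5.51, 4.81, and 6.31 FPKM in T1, T2, and T3, against 2.70, 4.69, and 3.71 in C1, C2, and C3. The groups did not overlap here either, as for 6.83% of the genes tested in this direction, with a log2 difference of 0.49 and an unadjusted p of 0.0525 in limma.

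The substrates of the pathway come from acyl-CoA and from glycolysis. Of 16 genes in the supply of fatty acyl-CoA, 12 had a fitted difference above 0 and 4 below, with a median of 0.15. Over all genes tested, 55.1% were above 0. By pair, 14 of the 16 were higher in T1 than in C1, 6 in T2 than in C2, and 7 in T3 than in C3. The medians of these pairs were 0.445, -0.095, and -0.063. An unadjusted p below 0.05 in limma was reached by 2 of the 16, both higher, beside 3.57% of the genes tested, and an adjusted one by 0. These were the acyl-CoA synthetases *acs-2* and *acs-18*, which the study had named on these samples, with log2 differences of 1.00 and 0.57 (standard errors 0.27 and 0.22). For 5 genes around dihydroxyacetone phosphate the median was -0.02, with 2 above 0 and 3 below, and 0 passed either threshold. *aldo-2*, an aldolase, was at 467 FPKM in T1 against 112 in C1, but at 59.1 in T2 and 66.0 in T3 against 64.4 in C2 and 52.5 in C3. *gpdh-1*, a glycerol-3-phosphate dehydrogenase, had a log2 difference of -0.58 (standard error 0.40). *gpdh-1* was at 6.13 FPKM in C3 against 1.70 in C2, 1.14 in T2, and 1.46 in T3. In the first table it was higher in T1, at 3.35 against 2.98 in C1.

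Other acyltransferase and phospholipid genes lay on both sides of 0. The 12 other *acl* genes tested had a median of 0.07, with 8 above 0 and 4 below, and 0 at an unadjusted p below 0.05 in limma. The largest differences were 0.30 in *acl-12* and 0.26 in *acl-13*, so *acl-7* at 0.15 lay within their range. The 15 genes of phospholipid head group synthesis had a median of -0.05, with 6 above 0 and 9 below and 0 at an unadjusted p below 0.05. The largest were -0.56 in *ckb-2*, a choline kinase gene, and 0.23 in *pcyt-2.2*, a gene of ethanolamine phospholipid synthesis. *ckb-2* was at 9.80 FPKM in C3, whereas C2 at 2.39 lay below T2 at 3.70 and T3 at 2.525. In the first table it was at 7.30 in T1 against 11.07 in C1.

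*fard-1* has been described as a target of the nuclear hormone receptor DAF-12. *daf-12* was at 11.8, 26.4, and 17.4 FPKM in T1, T2, and T3, against 6.87, 16.9, and 27.4 in C1, C2, and C3. *daf-12* and *fard-1* were both higher in T1 than in C1. In T2 against C2, *daf-12* was higher while *fard-1* was nearly equal, at 29.8 and 29.6 FPKM. In T3 against C3, *fard-1* was higher and *daf-12* was lower. Within the second table the libraries showed no pairing by number, and *daf-12* overlapped between the groups. Whether *fard-1* follows *daf-12* was not tested. *daf-9*, which makes the hormone of DAF-12, had a log2 difference of -0.40 (standard error 0.35). *daf-9* was at 5.49 FPKM in C3, whereas C2 at 1.56 lay below T2 at 1.70 and T3 at 1.99. In the first table it was at 0.59 in T1 against 0.77 in C1. Over 12 regulators of fat and longevity genes, the median was 0.08, with 10 above 0, 2 below, and 0 at an unadjusted p below 0.05 in limma. Over all genes tested, 55.1% were above 0. By pair, 8 of the 12 were higher in T1 than in C1, 6 in T2 than in C2, and 6 in T3 than in C3. The medians of these pairs were 0.253, 0.007, and -0.066. The stearoyl and palmitoyl desaturases act on the same acyl-CoA pool. Their log2 differences were 1.22 in *fat-5*, 0.51 in *fat-7*, and 0.43 in *fat-6*, with standard errors of 0.416, 0.3, and 0.382. T1 was above C1 for each, at 40.34 against 12.05 FPKM for *fat-5*. In the second table *fat-5* was at 7.832 in T2 and 7.458 in T3 against 6.726 in C2 and 1.431 in C3. *fat-7* was at 1.822 in T2 and 2.059 in T3 against 2.199 in C2 and 0.508 in C3. *fat-6* was at 320.4 in T2 and 173.6 in T3 against 300.5 in C2 and 114.8 in C3. C3 was thus the lowest library of that table for each desaturase. Of these 3, 1 had an unadjusted p below 0.05 in limma, beside 3.57% of the genes tested, and 0 an adjusted one. The study had already reported these desaturases and *daf-12* as up-regulated on these samples, so they are not an unselected list.

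**Figure D4:**
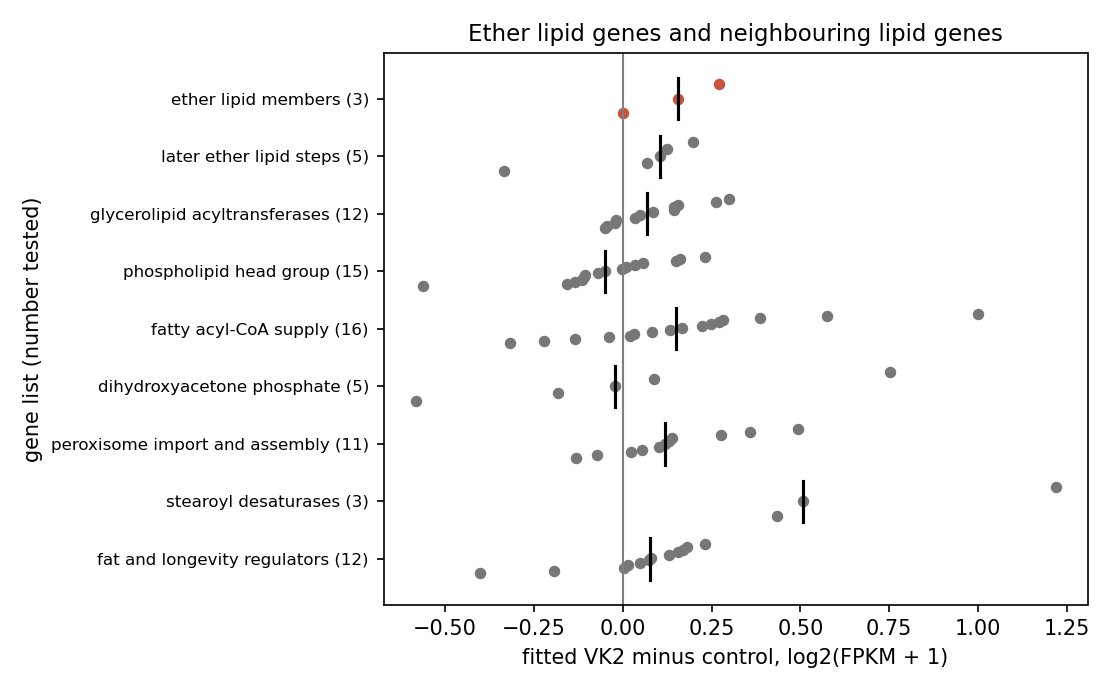
Fitted difference between VK2-treated and control worms in log2(FPKM + 1) (horizontal axis) of each gene in the lists on the vertical axis, with the number of genes tested in parentheses; points are genes, red for *fard-1*, *acl-7*, and *ads-1*, and black bars are list medians. The medians of the lists other than the desaturases lie between -0.05 and 0.15, and the 3 ether lipid genes, from 0.0013 to 0.27, lie among the genes of the other lists.

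The patterns of the 3 genes over the libraries were compared with each other and with those of all genes tested. Each gene was centred within each table on the log2(FPKM + 1) scale, and patterns were compared by their mean absolute difference over the 6 libraries. This was 0.117 between *fard-1* and *acl-7*, 0.117 between *acl-7* and *ads-1*, and 0.152 between *fard-1* and *ads-1*. In order of nearness to *fard-1* among the 14191 genes, *acl-7* was number 947 and *ads-1* number 2528. In order of nearness to *acl-7*, *ads-1* was number 2677 and *fard-1* number 2682, and to *ads-1*, *acl-7* was number 2362 and *fard-1* number 4372. The nearest to *fard-1* with a symbol were *flp-33*, a neuropeptide gene, at 0.0155, *aex-3* at 0.0227, and *unc-120*, a muscle transcription factor gene, at 0.0267. Those nearest to *acl-7* were *tra-1*, the sex determination regulator, at 0.0203, *fis-1* at 0.0215, and *gei-8* at 0.0240. Those nearest to *ads-1* were *hex-2* at 0.0173, *ipla-2* at 0.0180, and *tmbi-4* at 0.0182. With 6 libraries and 14191 genes, near patterns arise easily, and these are given as a description.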

How the data were processed

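The authors aligned the reads of 3 libraries per group with Hisat2 to WBcel235 and calculated FPKM with Ballgown, and the FPKM of each transcript was deposited in 2 tables. The submitters' processing notes also name cutadapt, StringTie, HISAT2 2.1.0, and STAR 2.5.2b. A KAPA stranded kit was used, and the sources used here do not say whether counting used strand. Values were read from the end of each line, because tabs are missing in the header and in 49 lines of the first table, which were divided at the gene identifier. The first table lists 24354 transcripts, none under 0.5 FPKM in both libraries, and the second 25370, of which 331 are under 0.5 FPKM in all 4, so the filters differed.

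FPKM was summed per gene, and of 15207 genes in both tables the 14191 with a mean of at least 1 were tested with limma 3.58.1 in R 4.3.3 on log2(FPKM + 1), trend on and robust off. The script was tested on simulated data with planted log2 differences larger than those fitted for the 3 genes. That test does not show whether differences as small as theirs would be called. Python 3.11.15, numpy 2.4.6, pandas 2.3.3, and matplotlib 3.10.9 were used, with Ensembl release 115 for exons. Depth is unknown, so no counting error is given. The 3 genes and the lists were chosen with earlier results of these data known. Named are the 3 genes, the 2 largest fitted differences of each lipid list, *prx-5*, *daf-12*, *agmo-1*, and *tmem-189*, and the 3 genes nearest to each gene in pattern; *cept-1*, *cept-2*, and *fat-6* were added after their values were seen. Of the marker lists, the gene with the highest FPKM of each was *asp-1* for intestine, *col-19* for hypodermis, *unc-54* for muscle, *snb-1* for neurons, *perm-2* for oocytes, *gld-1* for germline, and *msp-31* for sperm. The symbols of 4 list genes came from a table of gene names.

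After removal of group means, libraries of the same number had an r across genes of 0.881, 0.556, and 0.543, but T3 and C2 had 0.613 and T2 and C3 had 0.608, so the numbers follow the table, and within the second table T2 minus T3 against C2 minus C3 gave -0.111. A fit with the replicate number as a block was an alternative. The others left out each library, the table term, the filter, the trend, or the whole first table, raised the filter to a mean of 5, turned robust on, took 0.1 or 5 as the pseudocount, normalized by quantiles or scaled by the upper quartile, or took the highest transcript in place of the sum.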

Additional observations from a re-analysis of the deposited data

How the results depend on the processing

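The directions of *fard-1* and *acl-7* and their side of the adjusted p threshold of 0.05 held under all 18 alternatives each, from 0.10 to 0.35 for *fard-1* and from 0.08 to 0.24 for *acl-7* on the log2 scale. The difference of *ads-1*, 0.0013, changed sign under upper quartile scaling (-4e-04) and with the second table alone (-0.12), and it ranged from -0.12 to 0.10 with each library left out, below 0 without C1, T1, or C2, and the cause was not tested. It passed the threshold under none of its 18 alternatives. With the replicate number as a block, the differences were 0.27, 0.15, and 0.0013 for *fard-1*, *acl-7*, and *ads-1*, and no call changed. The count of all genes past an adjusted p of 0.05 was 0 under the 12 other alternatives and 0 to 2 with each library left out, with *ctb-1* called without T2 and *col-108* and *scl-13* without C3, genes named after their values were seen. The interaction kept its direction and call under its 13 alternatives for each gene, from 0.43 to 0.59 for *fard-1*, 0.11 to 0.34 for *acl-7*, and 0.26 to 0.49 for *ads-1*. The unknown depth leaves the counting error of low transcripts such as Y71H10A.2.2 unmeasured.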
